A study of Mus musculus with 12 samples.

Results

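Regulatory T cells are CD4+ T cells that restrain immune responses, and 8 genes that mark or control them were examined here, out of 55335 genes counted. The 8 are Foxp3, Il2ra, Ikzf2, Ikzf4, Ctla4, Tnfrsf18, Tnfrsf4 and Tnfrsf9, taken by gene symbol from a list. They were measured in thymocytes, the developing T cells of the thymus, from 6-week-old mice kept free of specific pathogens. The study compared wild-type mice (WT) with mice labelled miR-181a/b-1 KO, in which the gene pair for the microRNAs miR-181a and miR-181b on mouse chromosome 1 is knocked out. Each genotype has 3 RNA-seq libraries and 3 ribosome footprint libraries, 12 in all. RNA-seq counts all RNA of a gene, whereas footprinting counts the stretches of mRNA that ribosomes shield from nuclease digestion and so follows translation. Cells of all groups went directly from the strainer into cycloheximide at 0.1 mg/ml, a drug that halts ribosomes on the mRNA. The sources used here give neither the strain nor the sex of the mice. The labels do not tie an RNA-seq library to a footprint library of the same mouse, and p-values below measure the spread between these libraries.

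In the thymus, regulatory T cells arise from CD4 single-positive thymocytes that receive strong signals through the T cell receptor. These cells display CD25, the alpha chain of the interleukin-2 (IL-2) receptor encoded by Il2ra, together with costimulatory receptors of the TNF receptor family, and IL-2 acting through STAT5 then supports the switching on of Foxp3, the transcription factor that defines the lineage. Il2ra is not restricted to them, because CD25 also marks early CD4-CD8- (double-negative) thymocytes, and Helios, the product of Ikzf2, is made in other thymocytes as well. miR-181a is known as a microRNA of immature thymocytes that raises their sensitivity to T cell receptor signals by repressing phosphatases. Because whole thymocyte suspensions were sequenced, fewer cells of a type and less RNA per cell cannot be told apart.

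The main mature microRNAs of the deleted gene pair are shown first because they define the genotype compared; another gene pair of the family can yield the same mature forms. The sequences are from RefSeq (GRCm38.p6), written 5′ to 3′, both on the plus strand, with miR-181a-5p at chr1:137966468-137966490 and miR-181b-5p at chr1:137966650-137966673. Capitals mark the seed, bases 2 to 8, with which a microRNA recognises its targets, and the 2 seeds are identical.
mmu-miR-181a-5p: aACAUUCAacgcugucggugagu
mmu-miR-181b-5p: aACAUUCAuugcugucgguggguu

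The promoters of Il2ra and Foxp3, the receptor chain and the lineage factor, follow because their fold changes had opposite signs in both assays. Those of Foxp3 did not pass the test in either assay. Ikzf4, Tnfrsf18 and Tnfrsf4 also had negative fold changes in both assays, likewise without passing. Each holds 250 bases before and 50 bases after a RefSeq start on the plus strand of GRCm38.p6, at chr2:11642542-11642841 for Il2ra and at chrX:7579426-7579725 for the first of the 2 listed Foxp3 starts. Capitals mark the motif GGAAA, the core of sites bound by NFAT factors, read on either strand, so that TTTCC is the same motif on the other strand.
Il2ra: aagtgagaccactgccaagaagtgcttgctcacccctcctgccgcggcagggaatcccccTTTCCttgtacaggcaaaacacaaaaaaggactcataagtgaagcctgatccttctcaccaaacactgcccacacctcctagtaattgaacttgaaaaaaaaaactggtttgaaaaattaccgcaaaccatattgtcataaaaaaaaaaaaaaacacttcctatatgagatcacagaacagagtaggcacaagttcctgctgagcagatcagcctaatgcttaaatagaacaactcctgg
Foxp3: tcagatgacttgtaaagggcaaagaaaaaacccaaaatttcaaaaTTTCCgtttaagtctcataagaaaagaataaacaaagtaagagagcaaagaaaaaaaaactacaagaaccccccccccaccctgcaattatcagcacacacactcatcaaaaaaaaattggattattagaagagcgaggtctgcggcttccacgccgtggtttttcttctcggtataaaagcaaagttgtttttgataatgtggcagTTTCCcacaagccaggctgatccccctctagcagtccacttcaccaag
The Il2ra window holds 1 match and the Foxp3 window 2. The other promoters found for the 8 genes hold 1 match for Ctla4, 1 for Tnfrsf4, 2 for Tnfrsf18, 2 and 3 for the 2 starts of Tnfrsf9, and 1 for the second start of Foxp3. The motif is common, being present in 61.3% of all 32851 promoters of this length, and a match describes letters, not binding.

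The libraries held 4479182 to 8180286 reads in genes in RNA-seq and 4069968 to 17859770 in footprints. Values are given as CPM, the usual unit of reads scaled to library size, here with library totals scaled by TMM. The row Mir181a-1, the gene of the deleted miR-181a, checked the labels in footprints, where it had 133 to 166 CPM in the WT libraries and 0.464 to 1.04 in the KO libraries. In RNA-seq it had 57 reads over the 3 WT and 67 over the 3 KO libraries. No loss was seen there (log2 fold change 0.33, edgeR adjusted p 0.756), and the reason was not tested. The RNA-seq labels thus have no check from this row, and genotypes are as labelled. The authors named their counts as adjusted without saying how. Libraries of the same replicate number and assay deviated from their genotype means in opposite directions: across 9078 genes in RNA-seq and 8155 in footprints, the correlation of these deviations between WT and KO libraries of equal number lay between -0.98 and -0.96 and at -0.99. The test without a block treats the 6 libraries of an assay as independent, so calls that did not survive a replicate block (the replicate number as a term) are named beside the results. The SEs and intervals printed are those without the block. With deviations this strongly mirrored, equal-numbered libraries are not independent. These SEs and intervals are therefore likely too narrow, and the p-values without the block too small. With the block the SE was larger for 7 of 7 members tested in RNA-seq, by 1.34 to 1.69 times, and for 8 of 8 in footprints, by 1.16 to 2.47 times.

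Over the members as a whole, Il2ra was higher in the KO libraries in both assays, Ikzf2 was higher in RNA-seq, and no member fell by the test. In RNA-seq 2 of the 7 members with enough reads for testing were called by edgeR's quasi-likelihood test at an adjusted p (Benjamini-Hochberg over all genes, FDR) under 0.05, against 6.91% of all 13652 genes tested. With the replicate number as a block, 1 of the 7 was called, Il2ra, against 0.806% of all genes. In footprints 1 of 8 was called, again Il2ra, against 17.6% of all 13509 genes, and with the block it was 1 of 8 against 3.02%. The median log2 fold change over the members tested was -0.22 in RNA-seq and 0.04 in footprints, beside medians over all genes of -0.00053 and -0.0090. The KO libraries all lay to one side of the WT libraries for 4 of the 7 members in RNA-seq, against 30.9% of all genes, and for 3 of the 8 in footprints, against 38.1%.

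**Figure D1:**
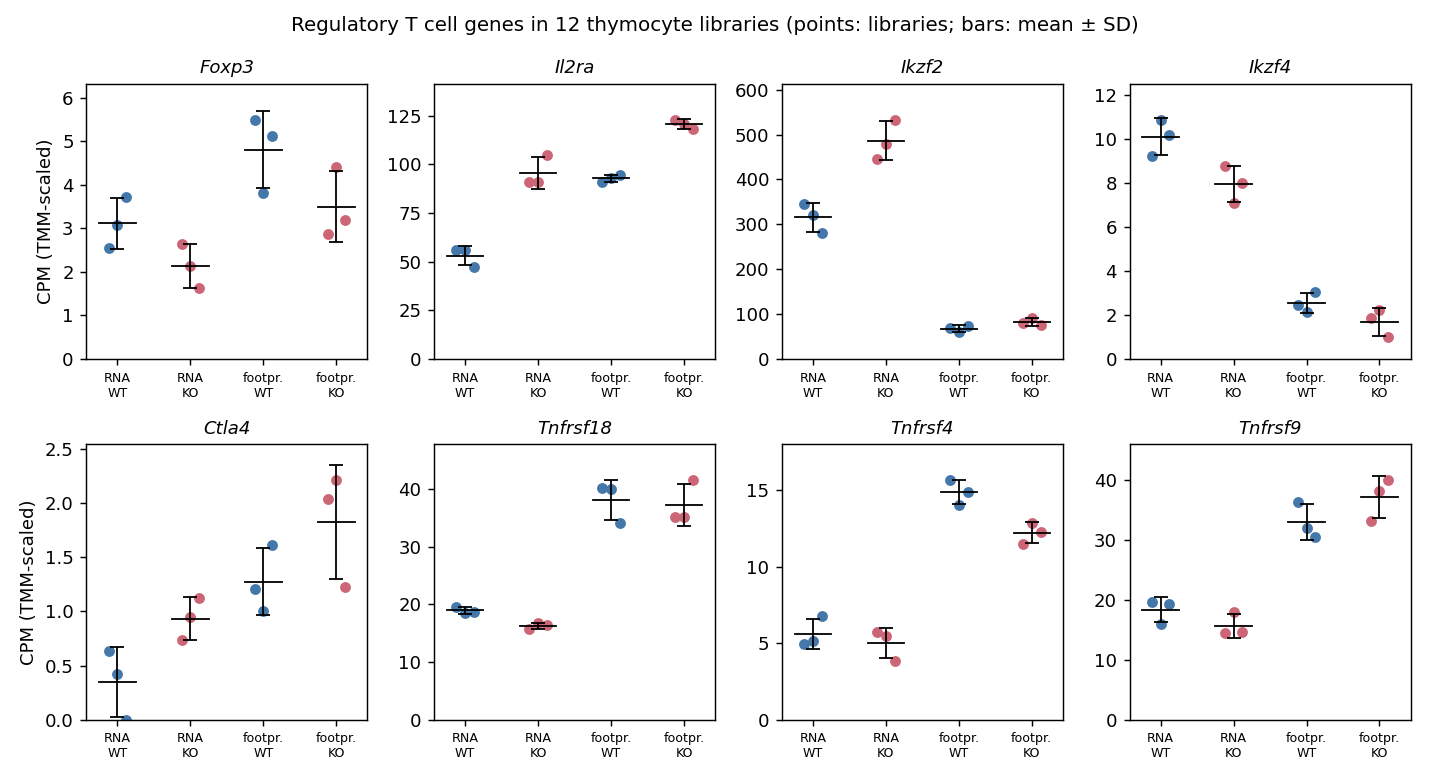
CPM of the 8 genes (vertical axes, each from 0, with its own scale) in the 3 libraries of each assay and genotype; points are libraries in the order of their replicate numbers, blue for WT and red for KO, and bars give the mean and SD. For Il2ra the KO points lie above the WT points in both assays, whereas for Foxp3 the genotypes overlap in both.

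Foxp3, the transcription factor that specifies the lineage, was sparsely detected. In RNA-seq it had 2.54, 3.07 and 3.72 CPM in WT libraries 1, 2 and 3 and 2.63, 2.13 and 1.62 CPM in the KO libraries, from 65 and 40 reads in total. In footprints the WT libraries had 5.50, 3.80 and 5.12 CPM and the KO libraries 2.88, 4.42 and 3.19 CPM, from 218 and 112 reads. KO library 1 lay above WT library 1 in RNA-seq and KO library 2 above WT library 2 in footprints, so the genotypes overlapped in both assays. The log2 fold change of KO against WT was -0.57 ± 0.29 (SE) in RNA-seq, with a 95% interval of -1.27 to 0.123 and an edgeR adjusted p of 0.207. In footprints it was -0.38 ± 0.22, with an interval of -0.912 to 0.147 and an edgeR adjusted p of 0.285. A difference in Foxp3 was therefore not detectable at this depth, and the intervals hold marked losses as well as slight gains. In RefSeq, Foxp3 overlaps Flicr and Ccdc22, and the sources used here do not say whether counting used strand, so reads of these neighbours may be included.

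Il2ra, the IL-2 receptor alpha chain CD25, showed the clearest difference of the 8. In RNA-seq it had 56.0, 55.9 and 47.4 CPM in the WT libraries and 91.0, 90.7 and 105 CPM in the KO libraries. In footprints the WT libraries had 91.1, 92.8 and 94.4 CPM and the KO libraries 123, 121 and 118 CPM. All KO libraries lay above all WT libraries in both assays, with gaps wider than the spread within either genotype. RNA rose 1.80-fold, a log2 fold change of 0.85 ± 0.0953 with a 95% interval of 0.622 to 1.08 and an edgeR adjusted p of 0.00675. Footprints rose 1.30-fold, by 0.38 ± 0.0342 on the log2 scale with an interval of 0.299 to 0.464 and an edgeR adjusted p of 0.00159. Il2ra remained called in each assay with the replicate block, at edgeR adjusted p of 0.0198 and 0.0446 and SEs of 0.149 and 0.0846, and without any 1 library. The authors' deposited table also lists Il2ra as significantly up in both assays, with log2 fold changes of 0.77 and 0.37.

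Since CD25 is also made by early double-negative thymocytes, a list of 8 other genes of those cells was set beside Il2ra (Ptcra, Kit, Dtx1, Hes1, Erg, Notch3, Il7r and Cd44). Their summed level was 220.0 to 244 CPM in WT and 209 to 237 CPM in KO RNA-seq libraries, and 299 to 322 and 291 to 313 CPM in footprints, so the genotypes overlapped. None of the 7 tested in RNA-seq passed edgeR's test, and of the 8 tested in footprints 1 did, Ptcra, the pre-T cell receptor alpha chain, which was lower in KO (log2 fold change -0.37, edgeR adjusted p 0.0293) but not called with the replicate block (0.155). Notch3 and Il7r, at means of 90.8 and 62.4 CPM, made up most of the RNA-seq sum in WT, and Kit, at 13.2 CPM, had a log2 fold change of 0.37 in RNA-seq that was not called (edgeR adjusted p 0.149). The part of early double-negative cells in the rise of Il2ra was not tested.

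Ikzf2 encodes Helios, an Ikaros family transcription factor abundant in thymus-derived regulatory T cells. In RNA-seq it had 345, 322 and 281 CPM in the WT libraries and 447, 480 and 533 CPM in the KO libraries. In footprints it had 70.1, 60.2 and 73.4 CPM in WT and 80.0, 91.9 and 75.1 CPM in KO. The KO libraries lay above the WT libraries throughout, although in footprints KO library 3 exceeded WT library 3 by less than the spread of either genotype. RNA was 1.54-fold higher, a log2 fold change of 0.62 ± 0.10 with an interval of 0.382 to 0.862 and an edgeR adjusted p of 0.0212. With the replicate block the log2 fold change was again 0.62 and the edgeR adjusted p was 0.081, so the call was lost, as it was on omission of any 1 of the 6 libraries (adjusted p 0.0504 to 0.0724). Footprints differed by 0.30 ± 0.10, with an interval of 0.0595 to 0.54 and an edgeR adjusted p of 0.0892, or 0.25 with the replicate block. In the authors' deposited table Ikzf2 is significantly up in RNA and not significant in footprints.

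Ikzf4 encodes Eos, a further Ikaros family member and a partner of Foxp3 in gene silencing. It had 9.22, 10.9 and 10.2 CPM in WT and 8.78, 7.10 and 7.98 CPM in KO RNA-seq libraries. Footprints were few, with 2.46, 2.13 and 3.03 CPM in WT and 1.86, 2.21 and 0.982 CPM in KO, from 113 and 58 reads. In RNA-seq all KO libraries lay below the WT libraries, and in footprints the genotypes overlapped. The log2 fold changes were -0.33 ± 0.153 and -0.38 ± 0.236, with edgeR adjusted p of 0.162 and 0.315. The 2 Ikaros family members on the list thus had fold changes of opposite sign, of which that of Ikzf2 in RNA-seq alone passed the test without the block. Ikzf4 overlaps Gm26876 and Gm51824 in RefSeq.

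Ctla4, the inhibitory receptor that competes with CD28 for its ligands, was near the limit of detection. In RNA-seq it had 4, 3 and 0 reads in the WT libraries and 5, 4 and 9 in the KO libraries, too few for testing. In footprints it had 1.20, 1.01 and 1.61 CPM in WT and 2.04, 2.21 and 1.23 CPM in KO, from 56 and 61 reads, and KO library 3 fell within the WT range. The footprint log2 fold change was 0.70 ± 0.267, with a wide interval of 0.0633 to 1.35 and an edgeR adjusted p of 0.0925. With the replicate block the SE was 0.422 and the edgeR adjusted p 0.514.

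Tnfrsf18 encodes GITR, a costimulatory receptor that lowers the threshold for regulatory T cell differentiation in the thymus. It had 19.6, 18.6 and 18.7 CPM in WT and 15.8, 16.8 and 16.3 CPM in KO RNA-seq libraries. Its footprints were 40.1, 40.1 and 34.0 CPM in WT and 35.1, 35.1 and 41.5 CPM in KO. The KO libraries were all lower in RNA-seq and overlapped the WT libraries in footprints. The log2 fold change was -0.22 ± 0.11 in RNA-seq (interval -0.481 to 0.0452, edgeR adjusted p 0.198) and -0.07 ± 0.0911 in footprints (interval -0.286 to 0.152, edgeR adjusted p 0.664). Neither passed the test. Tnfrsf18 overlaps Gm16008 in RefSeq.

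Tnfrsf4 encodes OX40, a related costimulatory receptor. In RNA-seq it had 4.93, 5.16 and 6.75 CPM in WT and 5.71, 5.45 and 3.87 CPM in KO, from 117 and 93 reads. In footprints it had 15.6, 14.0 and 14.9 CPM in WT and 11.5, 12.9 and 12.3 CPM in KO, so the KO libraries were all lower there, while the RNA values overlapped. The footprint log2 fold change of -0.28 ± 0.093 had an interval of -0.50 to -0.0535 and an edgeR adjusted p of 0.0508, just short of the threshold. With the replicate block the SE was 0.153 and the edgeR adjusted p 0.417. In RNA-seq it was -0.20 ± 0.203, with an edgeR adjusted p of 0.608. Tnfrsf4 overlaps Sdf4 in RefSeq.

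Tnfrsf9 encodes 4-1BB, the third costimulatory receptor of the list. It had 19.7, 16.0 and 19.4 CPM in WT and 14.5, 18.0 and 14.6 CPM in KO RNA-seq libraries. Its footprints were 36.5, 32.1 and 30.6 CPM in WT and 33.2, 38.3 and 40.0 CPM in KO. The genotypes overlapped in both assays. The log2 fold change was -0.25 ± 0.126 in RNA-seq (interval -0.549 to 0.0543, edgeR adjusted p 0.292) and 0.15 ± 0.0939 in footprints (interval -0.0747 to 0.376, edgeR adjusted p 0.32). None of the 3 TNF receptor genes was called in either assay.

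**Figure D2:**
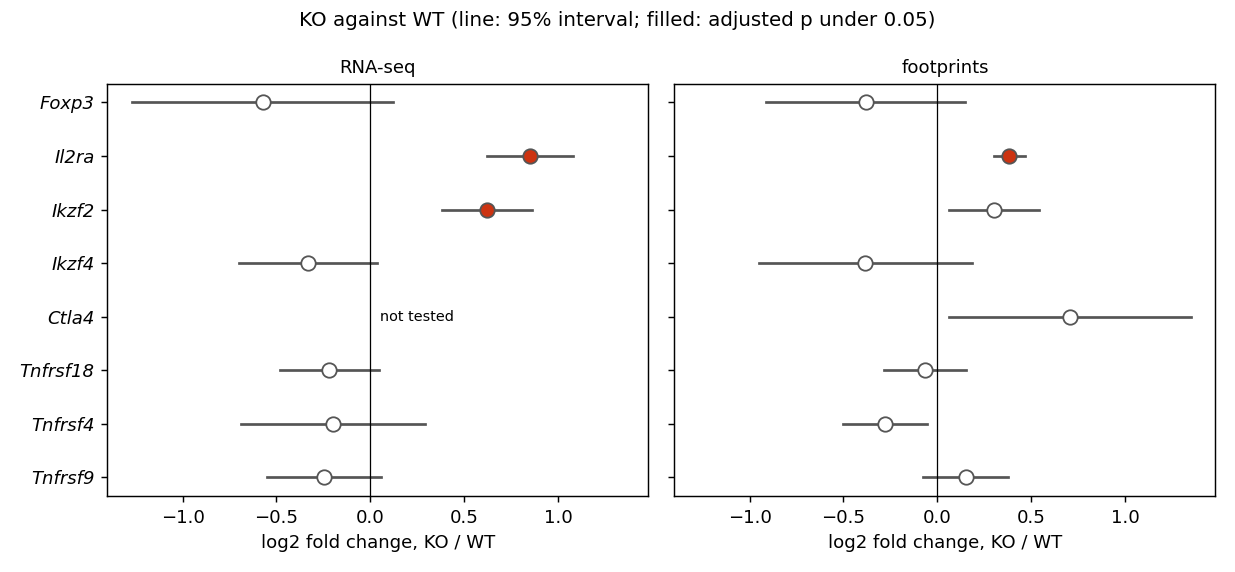
Log2 fold change of KO against WT (horizontal axis) for each gene in RNA-seq (left) and footprints (right); lines are 95% intervals and filled points mark an edgeR adjusted p under 0.05 without the replicate block. Il2ra is filled in both panels and Ikzf2 in RNA-seq, where its call was lost with the block, and Ctla4 was not tested in RNA-seq.

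Whether the footprints of a gene changed by more or less than its RNA was asked with an interaction term in 1 model of all 12 libraries. None of the 8 members was called by edgeR, against 0.156% of 14755 genes, nor with a replicate block that joined libraries of equal genotype and number across the assays, against 0.0949%, nor with a replicate block within each assay, against 0.0136%. At an unadjusted p under 0.05 there were 3 of 8, Il2ra, Ikzf2 and Tnfrsf9, against 12.8% of all genes. DESeq2 called 1 of 8, Il2ra, against 0.373%. For Il2ra the footprint change was smaller than the RNA change by 0.48 ± 0.105 on the log2 scale, an interaction of -0.48 with an interval of -0.705 to -0.248 and an edgeR adjusted p of 0.112. DESeq2 gave Il2ra an adjusted p of 0.04. For Ikzf2 the interaction was -0.33 ± 0.148 (edgeR adjusted p 0.37) and for Tnfrsf9 it was 0.40 ± 0.166 (edgeR adjusted p 0.335). The 5 other members had interactions from -0.76 for Ctla4 to 0.18 for Foxp3, with edgeR adjusted p of at least 0.703. Ctla4 had too few RNA-seq reads for testing in that assay alone, 7 in WT and 18 in KO. Its interaction rests on those reads and had an SE of 0.704 and an interval of -2.28 to 0.769.

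The ratio of footprint CPM to RNA-seq CPM within each gene relates its footprints to its RNA, on a relative scale without correction for length. RNA-seq counts all RNA of a gene, untranslated parts included, so the ratio also depends on how much of that RNA is coding. Differences in ratio between genes are therefore not a measure of ribosome occupancy alone, and the part of the coding share was not tested. Among 11849 genes in WT, the median log2 ratio was -0.20, with quartiles of -1.09 and 0.69. Ctla4, too sparse for testing in RNA-seq, was left out of the ratios. The other receptors all lay in the upper part: Tnfrsf4 at 1.4 ± 0.154 (SE, 3 libraries per assay, percentile 89.7), Tnfrsf18 at 1.01 ± 0.0802 (percentile 82.6), Tnfrsf9 at 0.85 ± 0.12 (percentile 79.1) and Il2ra at 0.81 ± 0.0789 (percentile 78.0). Foxp3 was at 0.63 ± 0.22 (percentile 73.3). Both Ikaros family genes lay in the lower part, Ikzf2 at -2.22 ± 0.12 (percentile 8.36) and Ikzf4 at -1.99 ± 0.165 (percentile 10.4). Ikzf2 thus had 0.215 footprint CPM for each RNA-seq CPM, whereas Tnfrsf4 had 2.65 footprint CPM for each RNA-seq CPM. In KO the log2 ratio of Il2ra was 0.34 (percentile 64.8), that of Ikzf2 -2.56 (percentile 5.99) and that of Tnfrsf9 1.24 (percentile 86.8). Of the counted reads, 71.5% to 73.0% lay outside the gene rows in RNA-seq against 26.9% to 27.7% in footprints, and the part of this difference in the ratios was not tested.

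**Figure D3:**
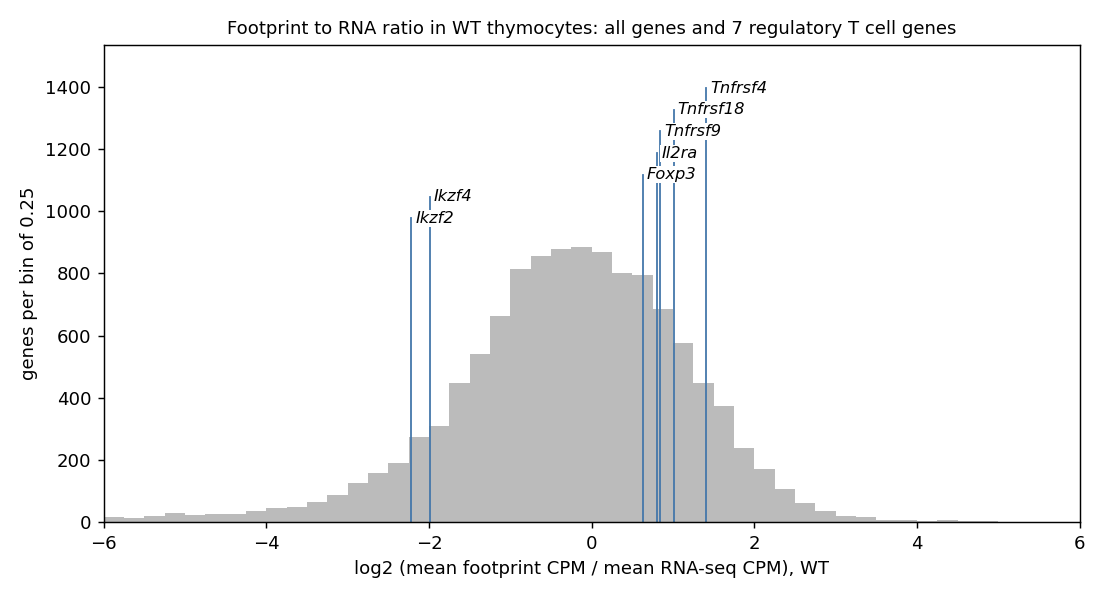
Histogram of the log2 ratio of mean footprint CPM to mean RNA-seq CPM over genes in WT (horizontal axis; vertical axis, genes per bin of 0.25), with lines for the 7 members measured in both assays; line heights only separate the names, and 35 genes lie beyond the axis. Ikzf2 and Ikzf4 lie near -2 and the other 5 between 0.63 and 1.4.

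The likeness of other genes to Foxp3 was measured as the smaller of 2 Pearson correlations of log2 CPM, over the 6 RNA-seq and the 6 footprint libraries, which share 3 libraries of each genotype and the mirrored deviations described above. Of 11740 genes, the 5 most alike were Prr3 (0.979), Klhl22 (0.977), Cyc1 (0.977), Pheta1 (0.976) and Tmco4 (0.975). Among the members Tnfrsf4 ranked 160th (0.852) and Ikzf4 469th (0.742). Tnfrsf18 and Tnfrsf9 ranked 4347th and 4480th, Il2ra 9896th and Ikzf2 10710th. Il2ra ran opposite to Foxp3 in both assays, with r of -0.857 in RNA-seq and -0.698 in footprints. Each r spans both genotypes and so includes the fold changes of opposite sign given above, to which it is not separate support. With Foxp3 represented by 9 to 96 reads a library, these ranks are descriptive.

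Among 24 other genes associated with regulatory T cells, calls fell on both sides, as the plot of pathway genes shows. The counts of this and the following lists stand beside the shares of all genes called, 6.91% in RNA-seq and 17.6% in footprints, or 0.806% and 3.02% with the replicate block. In RNA-seq 21 were tested, 2 were higher (Izumo1r and Nrp1) and 4 lower (Itgae, Nt5e, Lag3 and Ccr8), with a median log2 fold change of -0.19, and none was called with the replicate block. In footprints 4 of 21 were higher (Izumo1r, Gpr83, Nrp1 and Tgfb1) and 3 lower (Itgae, Lag3 and Ccr8), with a median of -0.08. With the block, Izumo1r, Gpr83 and Nrp1 remained higher in footprints and Itgae and Ccr8 lower. On omission of any 1 library, 1 or 2 genes were called in RNA-seq and 5 or 6 in footprints. Izumo1r, the folate receptor FR4 of regulatory and anergic T cells, had 21.6 ± 1.55 CPM (SD, n = 3) in WT and 40.1 ± 2.87 in KO footprints. Gpr83, an orphan G protein-coupled receptor, had 14.5 ± 0.942 and 27.4 ± 1.70 CPM, and Nrp1, the surface receptor neuropilin-1, had 131 ± 7.22 and 183 ± 10.5 CPM. Itgae, the integrin chain CD103, went from 70.6 ± 3.01 to 39.1 ± 1.93 CPM, and Ccr8, a chemokine receptor, from 29.4 ± 2.79 to 16.8 ± 1.76 CPM. Lgals1 (galectin-1) and Ccr4, which with Nrp1 had the most footprints of the list, had log2 fold changes of -0.10 and -0.13 there and were not called.

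**Figure D4:**
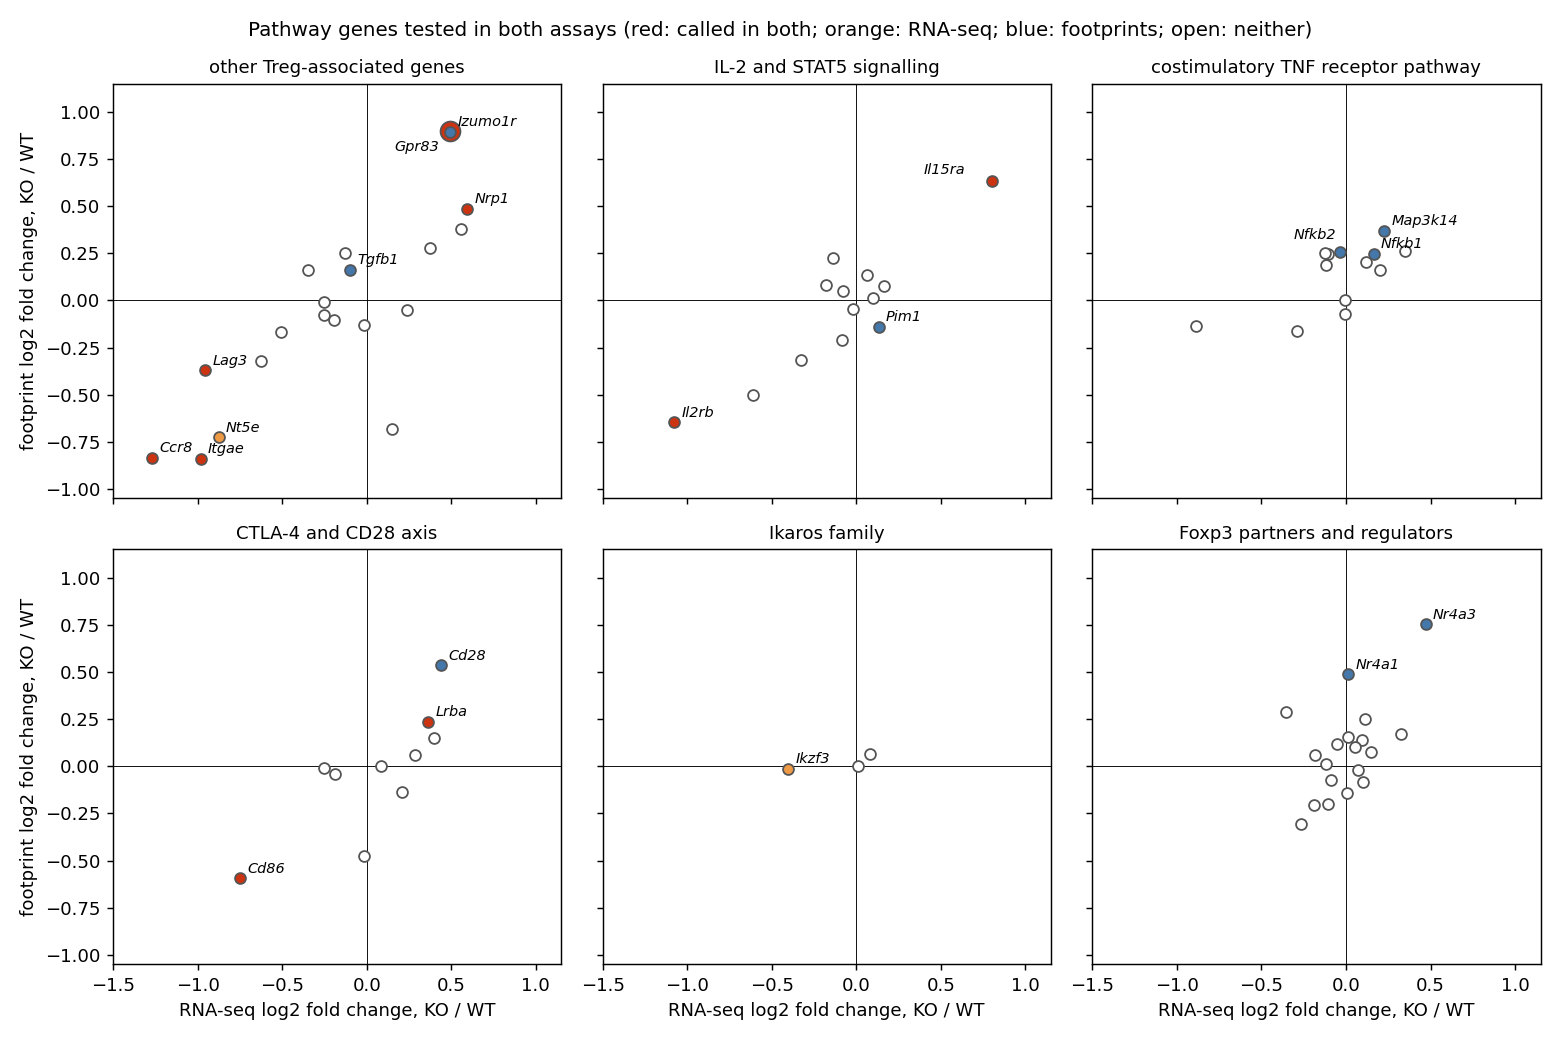
Log2 fold change of KO against WT in RNA-seq (horizontal axis) and footprints (vertical axis) for genes of 6 lists tested in both assays; colours mark calls at an edgeR adjusted p under 0.05 without the replicate block, and the larger symbol beneath Gpr83 is Izumo1r. In the first list the called genes lie at both ends apart from Tgfb1 near the centre, with Izumo1r, Gpr83 and Nrp1 at upper right and Itgae, Nt5e, Lag3 and Ccr8 at lower left.

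IL-2 and STAT5 signalling links CD25 to Foxp3. Of 16 listed genes, 14 were tested in RNA-seq, where Il15ra was higher and Il2rb lower, neither of them with the replicate block (edgeR adjusted p 0.243 and 0.0562). In footprints 13 were tested, Il15ra was higher and Il2rb and Pim1 were lower, and with the replicate block Il2rb alone remained (edgeR adjusted p 0.0383). Omission of any 1 RNA-seq library left 0 or 1 call, and omission of WT or KO footprint library 1 or 2 left 1. Il2rb, the beta chain shared by the IL-2 and IL-15 receptors, thus moved opposite to the alpha chain: it had 36.3 ± 6.75 CPM in WT and 17.7 ± 4.11 in KO RNA-seq libraries, and 30.6 ± 2.41 and 19.8 ± 1.75 CPM in footprints. The common gamma chain Il2rg had a footprint log2 fold change of -0.04, the kinase Jak1 of 0.08 and the transcription factor Stat5b of 0.05, none of them called. Il2, the cytokine itself, had 6 and 9 RNA-seq reads and 26 and 0 footprint reads in WT and KO and was not tested.

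Genes of the costimulatory TNF receptor pathway were tested next to Tnfrsf18, Tnfrsf4 and Tnfrsf9. None of 13 was called in RNA-seq. In footprints 3 of 14 were higher, a share near that of all genes, namely the kinase Map3k14 (log2 fold change 0.37) and the NF-kB precursors Nfkb1 (0.25) and Nfkb2 (0.26), and none of the 3 remained with the replicate block. Omission of WT library 2, KO library 2 or KO library 3 left 1 call. Rela, another NF-kB subunit, and Cd27, a further receptor of the family, had footprint log2 fold changes of 0.19 and 0.0021 and were not called. The ligands of GITR and OX40, Tnfsf18 and Tnfsf4, were too sparse for testing in either assay.

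On the CTLA-4 and CD28 axis, 10 of 10 genes were tested in each assay. Lrba, which protects CTLA-4 from degradation, was higher in both assays (log2 fold changes 0.36 and 0.24), and Cd28 was higher in footprints (0.53). Cd86, a ligand of both receptors, was lower in both (-0.75 and -0.59). None of these was called with the replicate block, nor in RNA-seq on omission of any 1 library. The adaptor Trat1 and the receptor Pdcd1, which with Lrba had the most footprints, were not called, with footprint log2 fold changes of 0.15 and 0.06.

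Of the 3 remaining Ikaros family genes, Ikzf3 (Aiolos) was lower in RNA-seq, with 554 to 573 CPM in WT and 417 to 432 in KO (log2 fold change -0.40, edgeR adjusted p 0.00787), but not with the replicate block (0.247). Its footprint log2 fold change was -0.01. Ikzf1 (Ikaros) and Ikzf5 (Pegasus) were not called, with log2 fold changes of 0.08 and 0.01 in RNA-seq. Among 19 partners and regulators of Foxp3, none was called in RNA-seq. In footprints 2 were higher, Nr4a1 (log2 fold change 0.49) and Nr4a3 (0.75), nuclear receptors induced by T cell receptor signals, and both remained with the replicate block (edgeR adjusted p 0.0438 and 0.0344), while omission of KO library 2 left 1. Satb1, Ezh2 and Ep300, chromatin regulators with the most footprints of this list, were not called, with footprint log2 fold changes of -0.14, -0.08 and -0.02. No gene of the 6 lists was called for the interaction.

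Markers of other cells that express the listed genes were summed per library. The 6 markers of mature single-positive T cells summed to 372 to 389 CPM in WT and 336 to 340 CPM in KO RNA-seq libraries, with 3 of 6 called lower (Klf2, Ccr7 and Ms4a4b) and none with the replicate block, and to 709 to 784 and 675 to 746 CPM in footprints, where Ms4a4b was called lower also with the block (edgeR adjusted p 0.00648). The 6 dendritic cell markers summed to 19.6 to 25.5 CPM in WT and 11.6 to 17.6 CPM in KO RNA-seq, and to 40.9 to 51.6 and 27.3 to 38.6 CPM in footprints. Siglech was called lower in both assays and Flt3 in footprints. With the block only Siglech in footprints remained (means of 10.5 CPM in WT and 4.85 in KO). The 8 thymocyte markers summed to 12270 to 13540 and 11510 to 12410 CPM in RNA-seq and to 21480 to 22480 and 20890 to 21880 CPM in footprints. Rag1 contributed more to these sums than any other of the 8, and in footprints Cd4 was called higher (log2 fold change 0.57, also with the block) and Rag1 and Lck lower (-0.30 and -0.12, not with the block). Of the 5 markers of NK cells and group 2 innate lymphoid cells, Ncr1 was at 0 in the WT RNA-seq libraries. The sums of these 5 overlapped in RNA-seq, at 19.3 to 23.4 CPM in WT and 17.1 to 20.3 CPM in KO, and in footprints were 5.95 to 6.27 CPM in WT and 3.31 to 3.71 CPM in KO. Most of the RNA-seq sum was Rora, at a mean of 19.3 CPM in WT, which also led the footprint sum (3.31 CPM in WT, 1.58 in KO). Only Klrb1c and Rora were tested in footprints, and both were called lower, neither with the replicate block. Ncr1, not tested there, went the other way, with means of 0.522 CPM in WT and 0.873 CPM in KO. The 6 thymic epithelium markers summed to 22.7 to 25.4 CPM in WT and 17.8 to 20.1 CPM in KO RNA-seq, and to 76.8 to 84.2 and 61.0 to 72.9 CPM in footprints. Krt5 was called lower in RNA-seq and Epcam in footprints (means of 38.3 CPM in WT and 26.2 in KO), neither with the block. The footprint log2 fold change was positive for 2 of the 6. B cell markers summed to 12.2 to 17.2 CPM in WT and 17.0 to 23.1 CPM in KO RNA-seq, and to 43.5 to 57.6 and 56.2 to 75.5 CPM in footprints. Among them only Cd79b was called, higher in footprints, also with the block. Macrophage markers summed to 64.5 to 74.5 and 61.6 to 72.1 CPM in RNA-seq and to 213 to 249 and 203 to 242 CPM in footprints. Lyz2 contributed most to the footprint sums, with means of 109 CPM in WT and 117 in KO. C1qa and Mertk were called lower in footprints, Mertk (8.07 CPM in WT, 4.04 in KO) also with the block. In RNA-seq the sums for mature T cells, dendritic cells and epithelium were thus lower in KO where Il2ra and Ikzf2 RNA were higher, and their part in the members' differences was not tested.

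**Figure D5:**
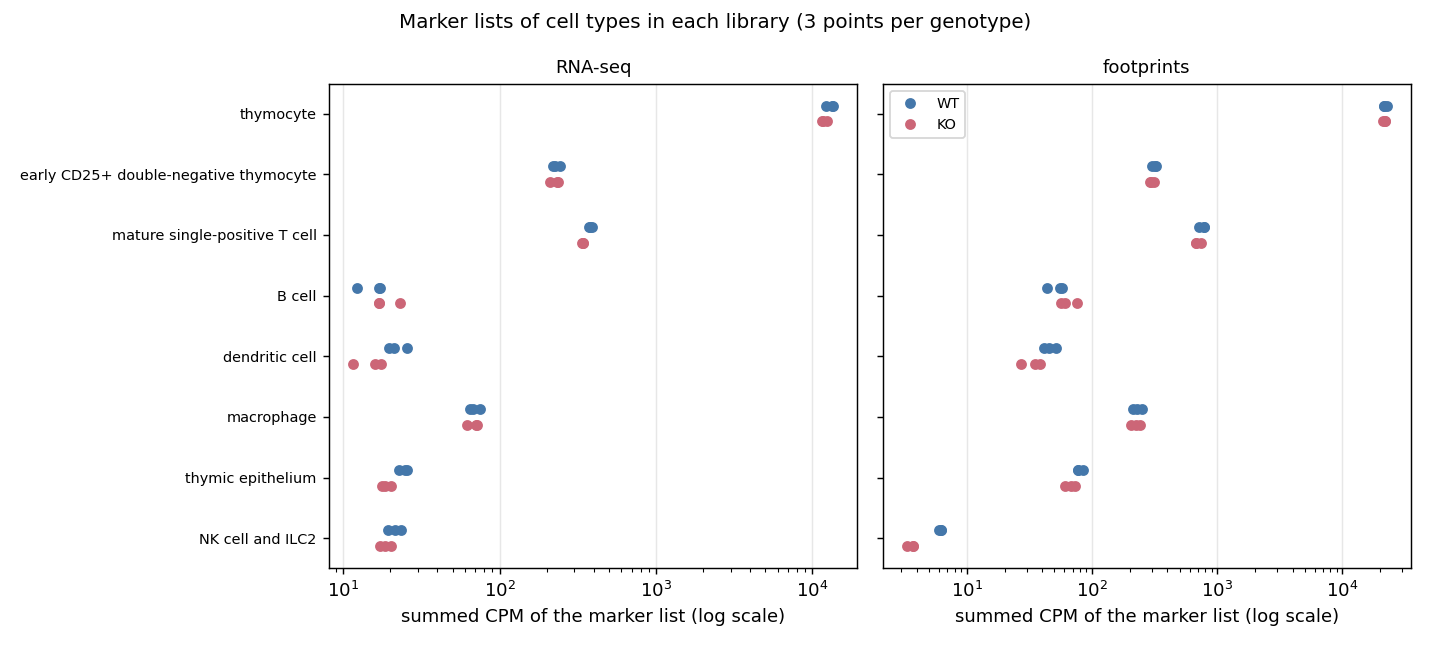
Summed CPM of the marker lists (horizontal axis, log scale) in each library, 3 points per genotype, for RNA-seq (left) and footprints (right). The sums for early CD25+ thymocytes overlap between genotypes in both assays, whereas those for dendritic cells are lower in KO in both.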

How the data were processed

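Per the file headers and labels, the authors deposited whole counts of reads per Ensembl gene for each of the 12 libraries, which they named adjusted, and 1 table of their own comparison per assay. The submitters' processing notes name FastQC, Bowtie2 2.5.1, STAR 2.7.10a, HTSeq 2.0.3 and DESeq2 1.40.2. The sources used here state neither genome build nor strand setting, and 12 per-library columns of the comparison tables were not used.

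Counts of each assay were fitted on all genes with edgeR 4.0.16 in R 4.3.3 (TMM, filterByExpr with a minimum count of 10, quasi-likelihood test, FDR under 0.05). Rows naming no gene were left out (26.9% to 73.0% of counted reads). The interaction used 4 group means. An SE is the larger of the test's own and the counting error, and intervals are 95%. The alternatives tried were DESeq2 1.42.0, RLE scaling, an FDR of 0.1, unfiltered genes, a joint fit, the replicate block and omission of each library. All members were named, with the called genes of each pathway list and its 3 genes with the most WT footprints. Members and lists were chosen with earlier results of these data known. Symbols matched 54587 IDs by version, 567 without version and 1 through the authors' table, and 180 matched none. The sums of 2 marker lists are not reported here.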

Additional observations from a re-analysis of the deposited data

How the results depend on the processing

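The number of members called in RNA-seq was 2, and it was 1 with the replicate block and 1 to 1 on omission of each library. In footprints it was 1, and it was 2 without the filter on low counts (Il2ra and Ikzf2, with 7.92% of all genes called), 4 at an FDR under 0.1 (with Ctla4 and Tnfrsf4, and 26.1% of all genes) and 1 to 1 on omissions. For the interaction it was 0, and it was 1 without the filter and 1 with DESeq2, both Il2ra, and 0 to 0 on omissions. On omission of each library the interaction of Foxp3 ranged from -0.11 to 0.39, of Ikzf4 from -0.30 to 0.058 and of Tnfrsf4 from -0.26 to 0.053, changing sign. The cause was not tested. Over all genes, RNA-seq calls were 943, against 110 with the replicate block, 532 with DESeq2, 1742 at an FDR under 0.1, 1508 in the joint fit and 215 to 323 on omissions. Footprint calls were 2376, against 408 with the replicate block, 1236 with DESeq2, 3523 at an FDR under 0.1 and 1035 to 1554 on omissions. Interaction calls were 23, against 14 with the replicate block by genotype and number, 2 with the replicate block within each assay, 272 without the filter, 55 with DESeq2, 49 at an FDR under 0.1, 25 over genes passing the filter in both assays (chosen after seeing the data) and 3 to 12 on omissions. Read totals per group were lowest for Ctla4, Foxp3, Ikzf4 and Tnfrsf4.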
